A study of Mus musculus with 9 samples.

Results

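Polycomb repressive complex 2 (PRC2) was followed here through the RNA of 10 of its subunit genes in long-term haematopoietic stem cells of mice. The genes were Ezh2 and Ezh1, which encode the catalytic subunits, the core subunit genes Eed, Suz12, Rbbp4 and Rbbp7, and the accessory subunit genes Jarid2, Aebp2, Mtf2 and Phf19. They were chosen by name, and all 10 were measured among the 22180 genes of the array, each by the probe set with exactly 1 gene symbol and the highest mean signal. Rbbp4 had a second such probe set.

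The 3 groups had 3 arrays each. The first held MxCre Jak2VF/+ EZH2-/- mice (Jak2VF_Ezh2KO), the second MxCre Jak2VF/+ mice with EZH2 not altered in the labels (Jak2VF), and the third WT controls. All were C57BL/6 mice injected with 5 doses of pI-pC of 300 µg each at 4 weeks of age, and marrow was taken 12 weeks later. Cells were sorted as Lin-, Sca-1+, c-kit+, CD34- and CD135-, and 10 ng of mRNA was amplified for each array. Jak2VF is the activating Jak2 mutation of myeloproliferative neoplasms, here on 1 allele. MxCre is switched on by interferon, which pI-pC induces, and so acts in many cell types besides stem cells. The labels do not say whether the controls carried MxCre, whether animals were pooled, or which part of Ezh2 was deleted.

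PRC2 places methyl groups on a lysine of the histone H3 tail, a mark of silenced genes. Its enzyme is Ezh2 or the less active Ezh1. Eed reads the mark and stimulates the enzyme, Suz12 holds the complex together, and the histone-binding proteins Rbbp4 and Rbbp7, which also belong to other chromatin complexes, take part in nucleosome contact. Jarid2 with Aebp2, or a Polycomb-like protein such as Mtf2 or Phf19, direct the complex to its sites. In blood stem cells Ezh2 is known to be higher in dividing cells, and its transcription is known to be driven by E2F factors, whereas Ezh1 is known for its role in resting stem cells.

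Start sites of Ezh2, Ezh1 and Suz12 are shown because those of Ezh2 and Suz12 held E2F letters and that of Ezh1 did not. Each run holds 250 bases before and 50 after a start site, from RefSeq on GRCm38.p6, written 5′ to 3′ on the gene's strand. Capitals mark a match to TTTCCCGC, TTTCGCGC, TTTGCCGC or TTTGGCGC, the forms of the E2F motif searched on both strands.
Ezh2 (chr6:47594981-47595280, minus strand): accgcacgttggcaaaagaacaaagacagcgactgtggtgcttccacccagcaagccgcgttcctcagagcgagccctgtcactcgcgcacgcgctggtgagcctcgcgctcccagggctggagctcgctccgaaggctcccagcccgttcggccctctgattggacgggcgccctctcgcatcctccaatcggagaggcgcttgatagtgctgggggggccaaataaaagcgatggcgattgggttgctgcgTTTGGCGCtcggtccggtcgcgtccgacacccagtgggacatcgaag
Ezh1 (chr11:101226414-101226713, minus strand): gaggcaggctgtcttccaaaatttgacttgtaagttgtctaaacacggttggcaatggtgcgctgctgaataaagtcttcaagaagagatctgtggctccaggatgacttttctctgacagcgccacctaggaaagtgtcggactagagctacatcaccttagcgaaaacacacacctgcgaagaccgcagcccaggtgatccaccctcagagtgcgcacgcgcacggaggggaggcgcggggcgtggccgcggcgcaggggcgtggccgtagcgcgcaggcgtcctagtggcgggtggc
Suz12 (chr11:79992856-79993155, plus strand): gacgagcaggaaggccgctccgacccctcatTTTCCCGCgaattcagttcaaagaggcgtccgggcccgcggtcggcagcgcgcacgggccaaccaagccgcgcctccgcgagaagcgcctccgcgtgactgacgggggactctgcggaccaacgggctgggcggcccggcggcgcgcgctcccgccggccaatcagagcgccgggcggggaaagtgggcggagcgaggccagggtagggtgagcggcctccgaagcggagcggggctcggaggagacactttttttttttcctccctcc

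The Ezh2 match, TTTGGCGC, lay from base 4 to base 11 after the start site. The Suz12 match was TTTCCCGC, and Phf19 held TTTCCCGC on the other strand. These 3 were the only members with a match, in 3 of 14 member start sites, against 2.26% of all 32851 start sites in the RefSeq table. The windows of Eed, Rbbp4, Rbbp7, Jarid2, Aebp2 and Mtf2 did not hold these letters. GC content of the member windows ran from 45.7% for the second Mtf2 start site to 75.7% for Rbbp7, with a median of 52.7% over all start sites. The windows of Ezh2, Suz12 and Phf19 held 31, 41 and 38 CG pairs, against a median of 7 over all start sites. Every motif form searched contains CG, so the 2.26% is not a share among windows of like content. Probe positions were not used here, so these windows do not show where the array measures each gene. A match is a description of letters, not a shown binding site.

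Overall signal was alike, with median log2 values of 5.51 to 5.68 per array. Pearson's r between pairs of arrays, across probe sets, was 0.898 to 0.968. Replicates 1 and 2 of Jak2VF_Ezh2KO carried Y-linked signal, at a mean of 6.66 and 6.81 over Eif2s3y, Kdm5d and Uty, and had Xist, the RNA that silences an X chromosome, at 4.86 and 4.56. Jak2VF_Ezh2KO replicate 3, and likewise all Jak2VF and WT arrays, had Y-linked means of 3.64 to 4.08 and Xist between 10.84 and 11.31. The labels do not give sex, so values without those 2 arrays stand beside many of the differences of Jak2VF_Ezh2KO given here. That setting leaves a single Jak2VF_Ezh2KO array, replicate 3, and was chosen after the values were seen. Of the stem cell markers, 11 of 13 were measured. After adjustment over all genes 0 passed in any comparison (limma, smallest adjusted p = 0.0941, for Procr in Jak2VF_Ezh2KO against Jak2VF). This does not show that the markers were unchanged. Procr differed by 0.90 in Jak2VF_Ezh2KO against Jak2VF (95% interval 0.58 to 1.22). Meis1 differed by -0.38 in that comparison, where the list held 6 positive and 5 negative differences. In Jak2VF against WT, Procr differed by -0.64, Mecom by -0.71 and Gata2 by 0.47, with 8 negative and 3 positive differences in the list. The arrays of these groups did not overlap for 4 of the 11 markers, against 3.54% of all genes higher and 2.57% lower. That count was 3 in Jak2VF_Ezh2KO against Jak2VF, against 4.18% of all genes higher and 6.94% lower. In Jak2VF_Ezh2KO against WT it was 2, against 6.28% of all genes higher and 6.62% lower. In RNA of a sorted population, fewer cells of a type and less RNA per cell cannot be told apart.

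Ezh2 was lowest in Jak2VF_Ezh2KO and highest in Jak2VF, and it had the largest differences among the members in both comparisons of Jak2VF_Ezh2KO. Its log2 signal read 8.47, 8.08 and 8.42 on the 3 Jak2VF_Ezh2KO arrays, 8.87, 9.09 and 8.78 on the Jak2VF arrays, and 8.48, 8.81 and 8.69 on the WT arrays. Every Jak2VF_Ezh2KO array lay below every Jak2VF and WT array, while the Jak2VF and WT arrays overlapped. The margin to WT was small, with 8.47 in Jak2VF_Ezh2KO replicate 1 against 8.48 in WT replicate 1. Between Jak2VF_Ezh2KO and Jak2VF the log2 difference was -0.59, with a 95% interval of -0.94 to -0.24, or 1.504-fold lower, and missed the threshold of 0.05 after adjustment over all genes (limma, adjusted p = 0.411; unadjusted p = 0.0038). Between Jak2VF_Ezh2KO and WT it was -0.34, or 1.26-fold lower, with an interval of -0.69 to 0.01 (limma, adjusted p = 0.596). Between Jak2VF and WT it was 0.25, or 1.19-fold higher, with an interval of -0.10 to 0.60 (limma, adjusted p = 0.924). The moderated F over the 3 groups gave an adjusted p of 0.592 and an unadjusted p of 0.0122 in limma. By that F 0.0271% of all genes passed, and 6.88% had an unadjusted p under 0.05.

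The signal that remained in Jak2VF_Ezh2KO was not tested for its source. Whether the probes of Ezh2 fall inside the deleted part was not given in the sources used here. The value is therefore no check of the deletion. Without the 2 arrays with Y-linked signal, the single remaining Jak2VF_Ezh2KO array, at 8.42, lay -0.49 from Jak2VF and -0.24 from WT, a direction kept with no spread of its own. The library labelled Jak2VF_Ezh2KO replicate 2 was the lowest of all 9 arrays, and without it the difference was -0.47 from Jak2VF and -0.21 from WT. The difference between Jak2VF and WT was 0.16 without Jak2VF replicate 2 and likewise 0.16 without WT replicate 1.

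**Figure D1:**
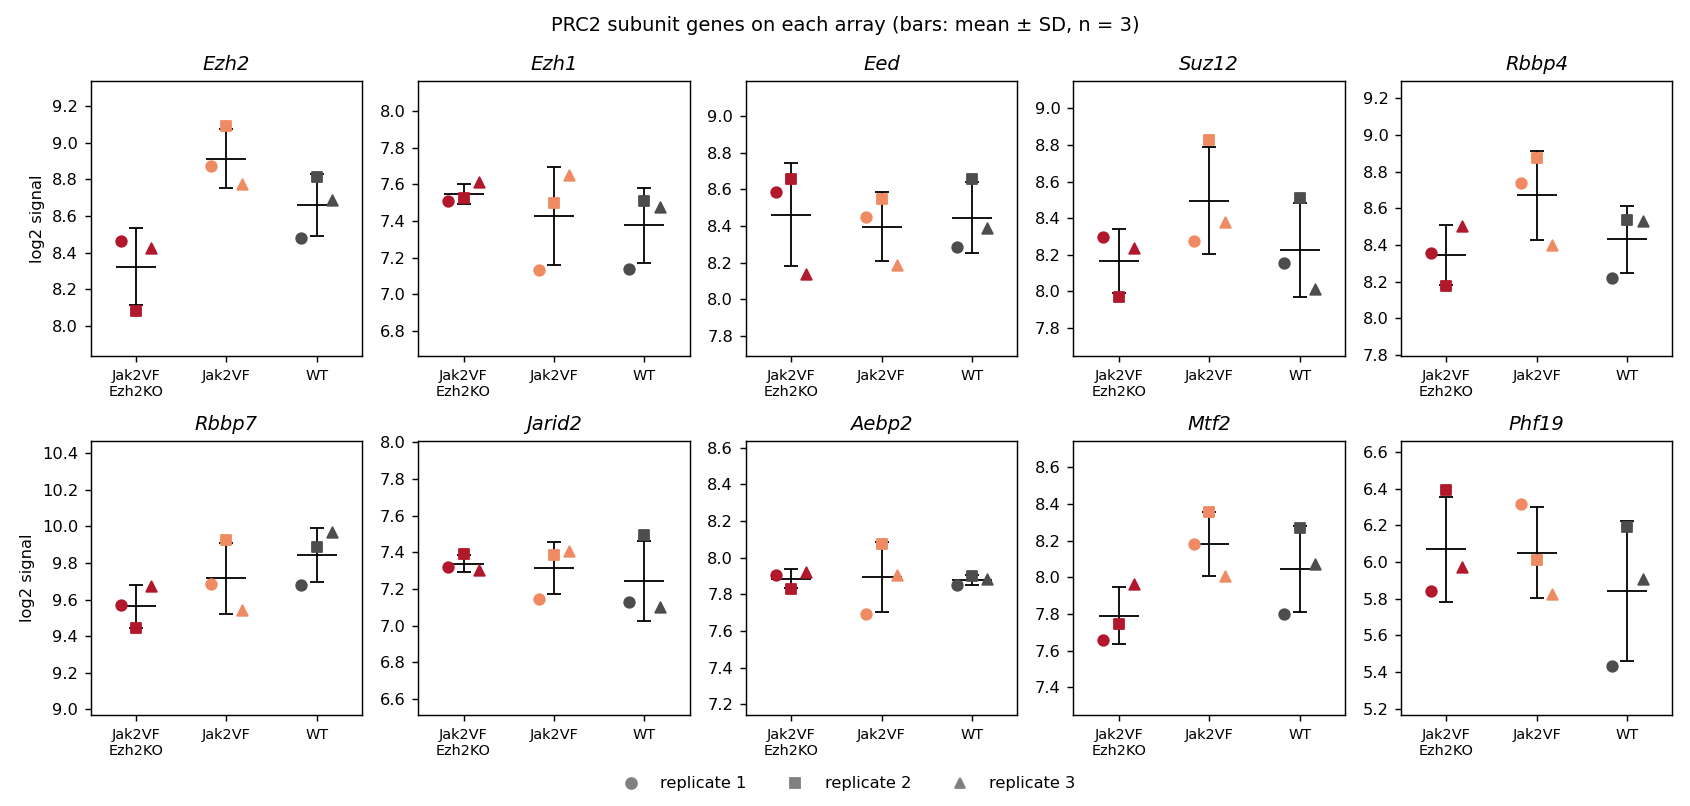
Log2 signal (y axis) of the 10 PRC2 subunit genes on each array of Jak2VF_Ezh2KO, Jak2VF and WT; point shapes are replicates, horizontal bars are group means and error bars are SD (n = 3), and every panel spans the same height. Ezh2 lies between 8.08 and 8.47 in Jak2VF_Ezh2KO, below all Jak2VF and WT arrays, whereas the Ezh1 groups overlap.

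The arrays of Ezh1, the other catalytic subunit, overlapped between all groups. It read 7.51, 7.53 and 7.61 in Jak2VF_Ezh2KO, 7.14, 7.50 and 7.65 in Jak2VF, and 7.14, 7.51 and 7.48 in WT. The Jak2VF_Ezh2KO arrays lay close together, at 7.55 ± 0.05 (SD, n = 3), within the range of the Jak2VF arrays, and replicate 1 was the low array in both other groups. The difference of Jak2VF_Ezh2KO from Jak2VF was 0.12, with a 95% interval of -0.25 to 0.49 (limma, adjusted p = 0.918), and that from WT was 0.17, with an interval of -0.19 to 0.54 (adjusted p = 0.783). Both intervals hold 0, and a rise of Ezh1 of up to 0.54 log2 units against WT lies within them. Without the 2 arrays with Y-linked signal the differences were 0.18 from Jak2VF and 0.24 from WT. Without Jak2VF replicate 1 the sign against Jak2VF turned, at -0.03, and without Jak2VF replicate 3 the difference was 0.23. Without WT replicate 1 the difference from WT was 0.055. Jak2VF differed from WT by 0.05 (adjusted p = 0.98).

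Mtf2 was the other member whose Jak2VF_Ezh2KO arrays all lay below the Jak2VF arrays. This Polycomb-like protein binds unmethylated CpG-rich DNA and brings PRC2 to it. Its signal was 7.66, 7.75 and 7.96 in Jak2VF_Ezh2KO, 8.18, 8.36 and 8.01 in Jak2VF, and 7.80, 8.27 and 8.07 in WT. The gap between the mutant groups was narrow, with 7.96 in Jak2VF_Ezh2KO replicate 3 against 8.01 in Jak2VF replicate 3, and the WT arrays overlapped with both. Jak2VF_Ezh2KO differed from Jak2VF by -0.39, or 1.31-fold lower, with an interval of -0.75 to -0.03 (limma, adjusted p = 0.689; unadjusted p = 0.0361). It was -0.22 without the 2 arrays with Y-linked signal. Against WT the difference was -0.26 (adjusted p = 0.686), -0.08 without those 2 arrays and -0.14 without WT replicate 2.

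In all, 0 of the 10 members passed over all genes in Jak2VF_Ezh2KO against Jak2VF (limma, adjusted p between 0.411 and 0.995), where 0.0451% of all genes did. At an unadjusted p under 0.05, 2 members were lower (Ezh2 and Mtf2) and 0 higher, against 3.99% of all genes lower and 2.91% higher. Arrays of the groups did not overlap for the same 2 members, both lower, against 6.94% of all genes lower and 4.18% higher. Of the 10, 6 had a negative and 4 a positive difference, with a median of -0.08 beside a median of -0.04 over all genes. In all 3 comparisons the standard errors of the members ran from 0.128 for Aebp2 to 0.224 for Phf19.

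Against WT, 0 of 10 members passed in Jak2VF_Ezh2KO (adjusted p between 0.596 and 0.987), where 0.0225% of all genes did, and 0 had an unadjusted p under 0.05, against 4.54% of all genes higher and 4.06% lower. Arrays did not overlap for 2 members, Ezh2 and Rbbp7, both lower, against 6.62% of all genes lower and 6.28% higher. The 10 differences were 5 negative and 5 positive, with a median of -0.02, the same as over all genes to 2 decimals. In Jak2VF against WT, 0 of 10 members passed in limma (adjusted p between 0.924 and 0.994), 0% of all genes did, and 0 members had an unadjusted p under 0.05, against 2.85% of all genes higher and 1.81% lower. No member's arrays stood apart in that comparison, against 3.54% of all genes higher and 2.57% lower, and 8 of 10 differences were positive, with a median of 0.10 beside 0.03 over all genes. The comparisons share arrays pairwise, so their signs are not independent of each other.

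**Figure D2:**
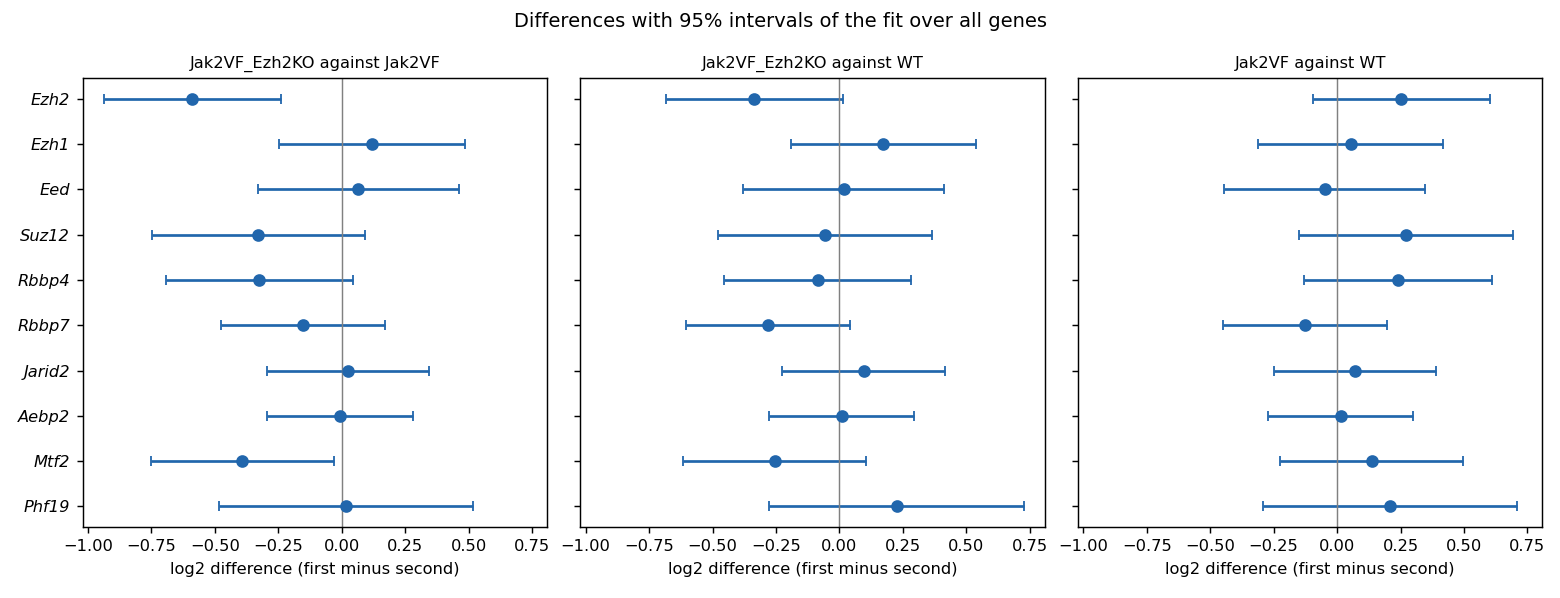
Log2 difference (x axis, first group minus second) of each PRC2 subunit gene in the 3 comparisons, as points with 95% intervals from the fit over all genes, not adjusted for the number of genes. Of the 10 intervals in Jak2VF_Ezh2KO against Jak2VF, those of Ezh2 (-0.94 to -0.24) and Mtf2 (-0.75 to -0.03) do not reach 0.

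Among the core subunits, Suz12 and Rbbp4 had the pattern of Ezh2 in their group means, lowest in Jak2VF_Ezh2KO and highest in Jak2VF, but with overlapping arrays. Suz12, without which the complex is unstable, read 8.30, 7.97 and 8.24 in Jak2VF_Ezh2KO, 8.28, 8.83 and 8.38 in Jak2VF, and 8.15, 8.51 and 8.01 in WT. Jak2VF replicate 2 alone exceeded 8.51, and the Jak2VF_Ezh2KO arrays lay within the WT range except for replicate 2. Its difference between Jak2VF_Ezh2KO and Jak2VF was -0.33, with an interval of -0.75 to 0.09 (limma, adjusted p = 0.769), and -0.26 without the 2 arrays with Y-linked signal. Without Jak2VF replicate 2 it was -0.16.

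Rbbp4 read 8.36, 8.17 and 8.51 in Jak2VF_Ezh2KO, 8.74, 8.87 and 8.40 in Jak2VF, and 8.22, 8.54 and 8.53 in WT. Jak2VF replicates 1 and 2 were the highest of all arrays, and Jak2VF replicate 3 fell among the other groups. Jak2VF_Ezh2KO differed from Jak2VF by -0.32, with an interval of -0.69 to 0.04 (limma, adjusted p = 0.738), and by -0.16 without the 2 arrays with Y-linked signal. The second Rbbp4 probe set differed by -0.11 in the same direction, with an adjusted p of 0.898 over all probe sets. It had 1 value, 6.59, on 4 arrays, and its WT arrays spanned 6.55 to 6.59, so it carried little of the variation seen in the brighter probe set. A further probe set that the annotation gives to both Sync and Rbbp4 differed by -0.12, and its signal cannot be assigned to either gene alone.

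Rbbp7, the paralogue of Rbbp4, had its highest group mean in WT. It is encoded on the X chromosome (GRCm38.p6, chromosome X, 162760372 to 162779090). Its signal was 9.57, 9.44 and 9.67 in Jak2VF_Ezh2KO, 9.68, 9.92 and 9.54 in Jak2VF, and 9.68, 9.88 and 9.97 in WT. All Jak2VF_Ezh2KO arrays lay below the WT arrays, by as little as 9.67 against 9.68, and the arrays with Y-linked signal were the lower 2 of that group. The difference from WT was -0.28, with an interval of -0.60 to 0.04 (limma, adjusted p = 0.622), and -0.17 in the single array without Y-linked signal. The part of sex in it was not tested.

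Eed, which carries the allosteric activation of the enzyme, showed no order of groups beyond its spread. It read 8.59, 8.66 and 8.14 in Jak2VF_Ezh2KO, 8.45, 8.55 and 8.19 in Jak2VF, and 8.29, 8.66 and 8.39 in WT. The group means of 8.46, 8.40 and 8.45 in Jak2VF_Ezh2KO, Jak2VF and WT lay within 0.07 of each other, well inside the SDs of 0.280, 0.187 and 0.193. The low value of Jak2VF_Ezh2KO was that of replicate 3, the array without Y-linked signal, so that its difference of 0.07 from Jak2VF became -0.26 with that array alone.

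Jarid2 and Aebp2, which belong to the same form of the complex, had the smallest spread within groups. Jarid2 read 7.32, 7.39 and 7.30 in Jak2VF_Ezh2KO, 7.15, 7.39 and 7.41 in Jak2VF, and 7.13, 7.50 and 7.10 in WT. Aebp2 read 7.91, 7.83 and 7.92 in Jak2VF_Ezh2KO, 7.69, 8.08 and 7.91 in Jak2VF, and 7.85, 7.90 and 7.88 in WT. Both genes overlapped between all groups, and the intervals of their differences between Jak2VF_Ezh2KO and Jak2VF ran from -0.30 to 0.35 for Jarid2 and from -0.29 to 0.28 for Aebp2. The pooled SD within groups was 0.115 for Aebp2 and 0.153 for Jarid2, against a median of 0.220 over all genes.

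Phf19, a Polycomb-like protein that binds a histone mark of transcribed genes, varied most within groups, with a pooled SD of 0.311. Its signal was 5.84, 6.39 and 5.97 in Jak2VF_Ezh2KO, 6.32, 6.01 and 5.83 in Jak2VF, and 5.43, 6.19 and 5.91 in WT. WT replicate 1 was the lowest array, and all groups overlapped. Its difference from WT was 0.23 in Jak2VF_Ezh2KO and 0.21 in Jak2VF, with adjusted p of 0.80 and 0.935 in limma, and the intervals of -0.28 to 0.73 and -0.29 to 0.71 were the widest among the members. Without WT replicate 1 the differences from WT were 0.020 in Jak2VF_Ezh2KO and 0.0024 in Jak2VF. Leaving out Jak2VF_Ezh2KO replicate 1, Jak2VF_Ezh2KO replicate 2 or WT replicate 2 gave 0.34, 0.064 and 0.40 for Jak2VF_Ezh2KO minus WT. Leaving out Jak2VF replicate 1, Jak2VF replicate 3 or WT replicate 2 gave 0.075, 0.32 and 0.38 for Jak2VF minus WT. Without the 2 arrays with Y-linked signal the difference of Jak2VF_Ezh2KO from WT was 0.13.

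Over the 9 arrays Ezh2, Mtf2 and Rbbp4 varied together and Ezh1 apart from them, given here as a description of arrays that share their groups and their cell cycle signal. Pearson's r was 0.869 between Rbbp4 and Mtf2, 0.861 between Ezh2 and Mtf2, 0.859 between Ezh2 and Rbbp4 and 0.777 between Ezh2 and Suz12 (9 arrays). It was -0.112 between Ezh2 and Ezh1 and -0.286 between Aebp2 and Phf19, the lowest of all pairs.

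The genes most like Ezh2 over the 9 arrays were Sf3b3, a splicing factor subunit gene (Pearson's r = 0.975), Actr3 of the actin-nucleating Arp2/3 complex (r = 0.974), the adaptor gene Dapp1 (r = 0.972), the small GTPase gene Arf1 (r = 0.971) and Rnf4, a ubiquitin ligase gene (r = 0.971). Arf1 averaged 9.17 ± 0.34 in Jak2VF_Ezh2KO, 10.20 ± 0.26 in Jak2VF and 9.87 ± 0.24 in WT (SD, n = 3), the same order of groups as Ezh2. The genes most like Ezh1 were Myadm (r = 0.984), Nipa1 (r = 0.970), the ubiquitin ligase gene Arih1 (r = 0.959), the DNA repair gene Mutyh (r = 0.949) and Sel1l3 (r = 0.942), each low on replicate 1 of Jak2VF and of WT. These were picked from 22180 genes for their likeness, and high values are found by such a search in 9 arrays.

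The cell cycle list was followed beside the members on the same arrays. Of it, 36 of 37 genes were measured, and their mean log2 signal was 8.04, 7.88 and 7.97 in Jak2VF_Ezh2KO, 8.14, 8.64 and 7.93 in Jak2VF, and 7.57, 8.27 and 7.96 in WT. Jak2VF replicate 2 was highest and WT replicate 1 lowest, and the Jak2VF_Ezh2KO arrays lay inside the range of the other groups. Of the 36 genes, 33 had a negative difference in Jak2VF_Ezh2KO against Jak2VF, with a median of -0.31, and 0 passed (limma, smallest adjusted p = 0.634; unadjusted p under 0.05 for 4 genes, all lower). Over all genes 41.8% of differences were positive and 3.99% were lower at that p. The smallest p was that of Kif11, a motor of the mitotic spindle, at -0.70. In Jak2VF against WT all 36 differences were positive, with a median of 0.32, where 55.8% of all genes had a positive difference. Of the 36, 0 passed (limma, smallest adjusted p = 0.924). An unadjusted p under 0.05 was found for 1 gene, higher, against 2.85% of all genes higher. These signs come from the same arrays and are not independent. In Jak2VF_Ezh2KO against Jak2VF arrays stood apart for 8 of the 36, against 4.18% of all genes higher and 6.94% lower. In Jak2VF against WT they did so for 0 of the 36, against 3.54% of all genes higher and 2.57% lower. Jak2VF replicates 1 and 3, at list means of 8.14 and 7.93, lay below WT replicate 2, at 8.27.

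As a description over the 9 arrays, Pearson's r with the cell cycle mean was 0.841 for Rbbp4, 0.810 for Suz12 and 0.751 for Mtf2. It was 0.696 for Ezh2 and 0.247 for Ezh1, where the median over all genes was -0.04. For Rbbp7, Aebp2, Phf19, Jarid2 and Eed it was 0.52, 0.501, 0.468, 0.459 and 0.456. Of all genes, 2.99% had a higher r than Rbbp4, 9.29% than Ezh2 and 33.1% than Ezh1. Without Jak2VF replicate 2 and WT replicate 1, the arrays farthest from the median, r was 0.622 for Rbbp4, 0.700 for Suz12, 0.635 for Mtf2, 0.620 for Ezh2 and -0.468 for Ezh1 (7 arrays). With the cell cycle mean as a covariate in the fit, the Ezh2 difference between Jak2VF_Ezh2KO and Jak2VF was -0.45 (limma, adjusted p = 0.304, with 0.231 to 1 over all alternatives), and that between Jak2VF and WT was 0.10 in place of 0.25 (adjusted p = 1, with 0.527 to 1 over all alternatives). The Mtf2 difference between Jak2VF_Ezh2KO and Jak2VF became -0.25 and the Jak2VF difference from WT turned to -0.03. At similar cell cycle means, Ezh2 read 8.42 in Jak2VF_Ezh2KO replicate 3 (mean 7.97), 8.78 in Jak2VF replicate 3 (mean 7.93) and 8.69 in WT replicate 3 (mean 7.96). These are single arrays with no spread of their own, given with no test.

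**Figure D3:**
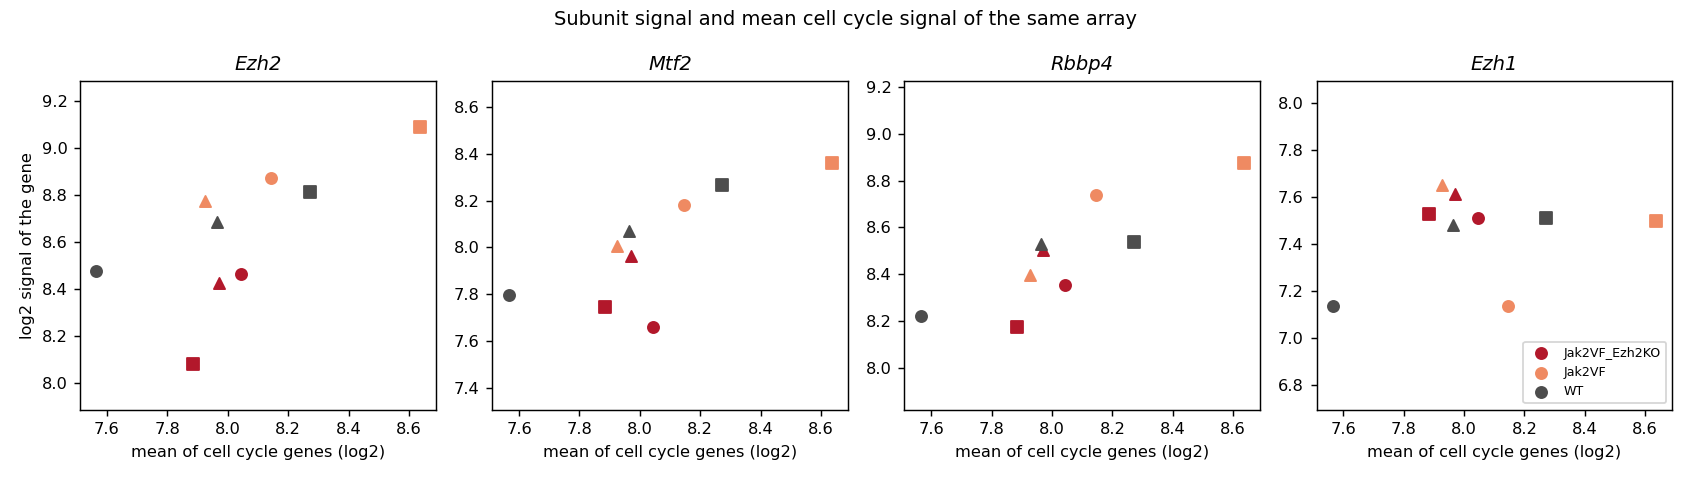
Log2 signal of Ezh2, Mtf2, Rbbp4 and Ezh1 (y axis) against the mean log2 signal of 36 cell cycle genes on the same array (x axis); colours are groups, and circles, squares and triangles are replicates 1, 2 and 3. Ezh2, Mtf2 and Rbbp4 are highest on Jak2VF replicate 2, where the cell cycle mean is 8.64, and Ezh2 of the 3 Jak2VF_Ezh2KO arrays is 8.08 to 8.47, at cell cycle means of 7.88 to 8.04.

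Lists of other lineages also differed in level between the groups, and their part in the subunit values was not tested. Relative to the WT average, megakaryocyte genes (8 of 10 measured) ranged from -0.52 to -0.11 in Jak2VF_Ezh2KO, 0.21 to 0.81 in Jak2VF and -0.09 to 0.17 in WT. Erythroid genes (8 of 13 measured) ranged from 0.36 to 0.57 in Jak2VF_Ezh2KO, -0.56 to 0.39 in Jak2VF and -0.30 to 0.41 in WT. Mast cell genes (7 of 7 measured) ranged from 1.18 to 1.53 in Jak2VF_Ezh2KO, 0.61 to 1.30 in Jak2VF and -0.15 to 0.17 in WT. The megakaryocyte genes had the same order of groups as Ezh2. Of them, Itga2b, an integrin of platelets, was lower in Jak2VF_Ezh2KO than in Jak2VF (-1.45, limma, adjusted p = 0.0441). The mast cell chymase gene Cma1 was higher in Jak2VF_Ezh2KO than in Jak2VF (1.63, limma, adjusted p = 0.0441) and than in WT (1.67, adjusted p = 0.0459). The mast cell list was mixed against Jak2VF, with 5 positive and 2 negative differences, among them Cpa3 at 0.33 and Fcer1a at -0.31. Against WT all 7 were positive. With the single Jak2VF_Ezh2KO array without Y-linked signal, where 0 genes passed, Itga2b differed by -1.44 from Jak2VF, and Cma1 by 1.39 from Jak2VF and 1.44 from WT. T and NK cell genes (11 of 11 measured) ranged from 0.42 to 0.73 in Jak2VF_Ezh2KO, -0.01 to 0.15 in Jak2VF and -0.14 to 0.15 in WT. Members of that list differed in sign. In Jak2VF_Ezh2KO against Jak2VF, 4 were higher and 3 lower at an unadjusted p under 0.05, against 2.91% of all genes higher and 3.99% lower. Among them Il7r differed by 1.95 and Klrd1 by 1.69 but Nkg7 by -0.75 (limma, adjusted p = 0.221, 0.0934 and 0.438). Neutrophil and monocyte genes (13 of 13 measured) ranged from -0.29 to 0.87 in Jak2VF_Ezh2KO, -0.01 to 0.46 in Jak2VF and -0.24 to 0.17 in WT. B cell genes (7 of 8 measured) ranged from -0.20 to 1.04 in Jak2VF_Ezh2KO, -0.14 to 0.06 in Jak2VF and -0.07 to 0.14 in WT. Jak2VF_Ezh2KO replicate 3 was the highest of all arrays in both lists, at 0.87 and 1.04. Replicates 1 and 2 of that group were at 0.37 and -0.29 for neutrophil and monocyte genes and -0.20 and 0.06 for B cell genes. Every value of Jak2VF_Ezh2KO without the arrays with Y-linked signal rests on that replicate 3. Gzmb is in both the mast cell and the T and NK cell lists. Log2 array signals have no 0, so absence of a marker cannot be read from them.

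The remaining accessory proteins of PRC2, Phf1, Epop, Lcor and Lcorl, and its inhibitor Ezhip were all measured. Of these 5 genes, 0 passed in any comparison (limma, smallest adjusted p = 0.556). At an unadjusted p under 0.05 there was 1, Lcor, lower in Jak2VF_Ezh2KO against WT. Over all genes 4.06% were lower and 4.54% higher at that p in that comparison. Lcor, which forms a vertebrate PRC2 subtype, read 7.32, 6.62 and 7.50 in Jak2VF_Ezh2KO and 7.91, 7.64 and 7.50 in WT. The difference was -0.53, replicate 2 of Jak2VF_Ezh2KO was the lowest array, and the groups met at 7.50, a value that 2 Jak2VF arrays shared.

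Of the enzymes that remove the PRC2 mark, Kdm6b averaged 6.66 ± 0.34 in Jak2VF_Ezh2KO, 6.67 ± 0.18 in Jak2VF and 6.56 ± 0.15 in WT (SD, n = 3 each). Kdm6a, encoded on the X chromosome and known to escape X inactivation, read 7.55, 7.26 and 8.02 in Jak2VF_Ezh2KO, 8.10, 8.32 and 8.10 in Jak2VF, and 8.20, 8.32 and 8.10 in WT. The 2 low arrays were those with Y-linked signal. Its difference was -0.56 from Jak2VF (limma, adjusted p = 0.55) and -0.59 from WT (adjusted p = 0.466), and -0.15 and -0.19 with the array without Y-linked signal alone.

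PRC1 is the sister complex that reads the PRC2 mark and places ubiquitin on histone H2A. Of its 20 listed genes, 17 were measured and 0 passed in any comparison (limma, smallest adjusted p = 0.411). In Jak2VF_Ezh2KO against WT, 14 of 17 had a positive difference, with a median of 0.13 beside -0.02 over all genes, and 3 were higher and 1 lower at an unadjusted p under 0.05. Over all genes 46.5% of differences were positive, and 4.54% were higher and 4.06% lower at that p. Bmi1, a stem cell self-renewal gene, read 6.94, 6.81 and 6.16 in Jak2VF_Ezh2KO, 6.10, 6.30 and 5.97 in Jak2VF, and 5.89, 6.02 and 5.87 in WT. Its 2 high arrays were those with Y-linked signal, and the difference from WT was 0.71 with all arrays (limma, adjusted p = 0.438) and 0.23 with the other array alone. Cbx7, a chromobox reader, differed from WT by 0.53 (adjusted p = 0.411) and Pcgf5 by 0.42 (adjusted p = 0.475), both with arrays that did not overlap. That held for 6 of the 17 genes in this comparison, against 6.28% of all genes higher and 6.62% lower.

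Of the 8 PR-DUB genes, the complex that removes the PRC1 mark, 0 passed, and the smallest p in Jak2VF_Ezh2KO against WT was that of Asxl1, at 0.46 (limma, adjusted p = 0.531). Of 10 other listed histone modifier genes, 9 were measured and 0 passed (limma, smallest adjusted p = 0.584). Among them Dot1l, a methyltransferase of histone H3, differed from WT by 0.43 in Jak2VF_Ezh2KO and by 0.44 in Jak2VF. Genes known to be held down by PRC2 did not pass either. Of 17 measured among 19, 5 had a positive and 12 a negative difference in Jak2VF_Ezh2KO against Jak2VF. Their median was -0.03 beside -0.04 over all genes. Their mean signal per array, 5.23 to 5.46, lay below the array medians of 5.51 to 5.68. At such low signal these signs do not show whether the genes changed. In Jak2VF_Ezh2KO against Jak2VF the largest difference of them was that of the fetal RNA-binding protein gene Lin28b, 0.44 (limma, adjusted p = 0.711). Its arrays ran from 5.01 to 5.07 in Jak2VF_Ezh2KO, 4.42 to 4.76 in Jak2VF and 4.55 to 5.34 in WT. In Jak2VF against WT the largest was that of Hoxd13, at -0.59 (limma, adjusted p = 0.924).

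**Figure D4:**
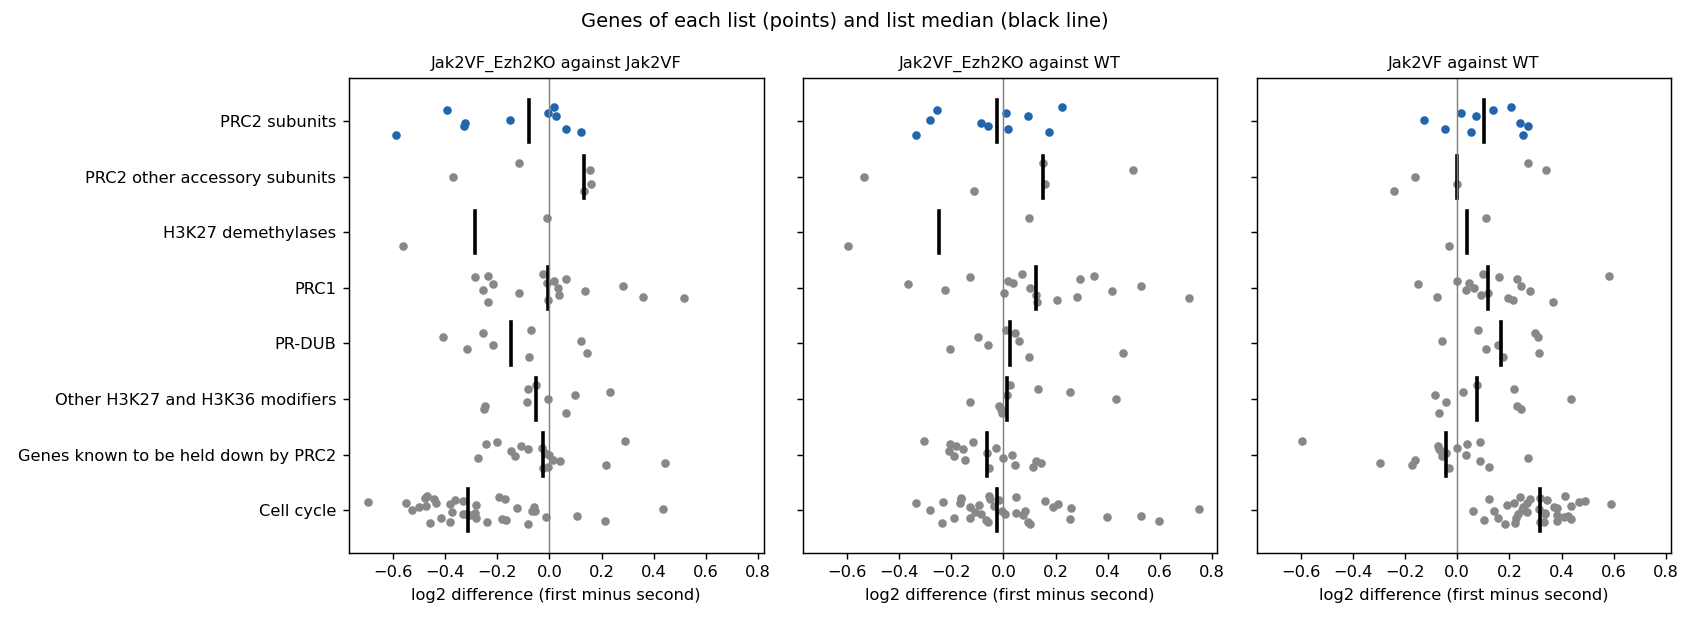
Log2 difference (x axis, first group minus second) of each measured gene (points) and the median (black line) for the PRC2 subunits and 7 other gene lists, in the 3 comparisons. Cell cycle genes lie to the left in Jak2VF_Ezh2KO against Jak2VF (median -0.31) and to the right in Jak2VF against WT (median 0.32). Their mean signal per array overlaps between all groups, and no point passed over all genes.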

How the data were processed

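Long-term haematopoietic stem cells were profiled on 9 Affymetrix mouse gene arrays, 3 per group. The authors deposited log2 values per probe set (41345 in all), and Partek 6.6 is named in the submitters' processing notes. Background correction, normalization and summary were not given in the sources used here, and no further normalization was applied. Exactly the same value on 2 or more arrays occurred in 36.9% of probe sets. The platform annotation gave 1 symbol to 23521 probe sets, several to 1814 and none here to 16010. Per gene the probe set with the highest mean was kept (22180 genes).

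All arrays entered 1 limma 3.58.1 fit (R 4.3.3, lmFit and eBayes without trend, 6 residual degrees of freedom) with 3 contrasts and a moderated F. The threshold was an adjusted p under 0.05 (Benjamini-Hochberg over all genes). The 3 arrays per group limit the precision. Per the labels the replicates are biological. Same-numbered arrays did not deviate together (r between -0.231 and 0.484 in 9 pairs, over 0.1 in 2), so numbers were not taken as pairs.

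Tested on simulated data for Jak2VF_Ezh2KO against Jak2VF over 22180 genes, the fit found 63% of 100 genes shifted by 1 on the log2 scale and 98% of 100 shifted by 2, and 7 of 168 calls were among unchanged genes. Members, lists and tests were chosen with earlier results of these data known. Besides the members, the text names, per list and comparison, genes that passed and those with the smallest p (up to 3), and the 5 genes most like Ezh2 and Ezh1, leaving out predicted genes, RIKEN clones, olfactory and vomeronasal receptors and small RNAs. Fold values were taken from the log2 differences.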

Additional observations from a re-analysis of the deposited data

How the results depend on the processing

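At an adjusted p under 0.05, 0 of the 10 members passed in any comparison under any alternative. At an unadjusted p under 0.05 (added after seeing the data for the members), 2 passed in Jak2VF_Ezh2KO against Jak2VF and 0 in the other comparisons. Ezh2 kept its direction under all alternatives run. With each array left out in turn, its difference ran from -0.66 to -0.47 for Jak2VF_Ezh2KO minus Jak2VF, -0.43 to -0.21 for Jak2VF_Ezh2KO minus WT and 0.16 to 0.33 for Jak2VF minus WT. The replicate block left its difference from Jak2VF at -0.59 (limma, adjusted p = 0.497) and took the counts of genes called to 0.

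The count of genes called was 10 in Jak2VF_Ezh2KO against Jak2VF, and became 1529 at an unadjusted p under 0.05, 19 without the genes below the median signal, 4 with median centring or the cell cycle covariate, and 0 with ordinary least squares, the replicate block, every probe set, only the 2 groups or without both arrays with Y-linked signal (chosen after seeing the data). With each of the 9 arrays left out in turn it moved by over 1.5 times, from 0 (without Jak2VF_Ezh2KO replicate 2 or any Jak2VF array) to 17 (without Jak2VF_Ezh2KO replicate 3). It was 5 in Jak2VF_Ezh2KO against WT, and became 1908 at an unadjusted p, 14 with array weights, 10 with trend and robust variance, 3 with median centring, 0 with the cell cycle covariate and 0 in the settings that gave 0 above, and 0 to 14 with arrays left out. In Jak2VF against WT it was 0 in limma and 1034 at an unadjusted p. By the moderated F it was 6, and became 10 with trend and robust variance, 15 without those genes, 0 with the replicate block, the cell cycle covariate, every probe set or without the Y-linked arrays, and 0 to 15 with arrays left out. The cause of these shifts was not tested.

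Small differences turned sign, and the cause was not tested. For Jak2VF_Ezh2KO minus Jak2VF, Aebp2 (-0.0060) became 0.029 with quantile normalization, 0.0038 with median centring, 0.026 with array weights and 0.051 with the cell cycle covariate, and Phf19 (0.018) became -0.059 with array weights. With the sex covariate and without the Y-linked arrays alike, Eed became -0.26, Jarid2 -0.010, Aebp2 0.031 and Phf19 -0.076. For Jak2VF_Ezh2KO minus WT, those 2 settings gave -0.30 for Eed, 0.012 for Suz12 and 0.076 for Rbbp4. Array weights gave 0.039 for Suz12, and quantile normalization -0.039 for Aebp2. For Jak2VF minus WT, quantile normalization gave -0.016 for Ezh1 and -0.067 for Aebp2, array weights -0.0045 for Aebp2, and the cell cycle covariate -0.015 for Ezh1, -0.0054 for Jarid2, -0.049 for Aebp2 and -0.027 for Mtf2.

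With each array left out in turn, differences that turned sign ranged as follows. For Jak2VF_Ezh2KO minus Jak2VF it was -0.026 to 0.23 for Ezh1, -0.039 to 0.23 for Eed, -0.058 to 0.071 for Jarid2, -0.11 to 0.086 for Aebp2 and -0.14 to 0.15 for Phf19. For Jak2VF_Ezh2KO minus WT it was -0.081 to 0.18 for Eed, -0.16 to 0.084 for Suz12, -0.19 to 0.00035 for Rbbp4 and -0.0098 to 0.038 for Aebp2. For Jak2VF minus WT it was -0.066 to 0.20 for Ezh1, -0.13 to 0.058 for Eed and -0.077 to 0.11 for Aebp2.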

Other observations

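Within an array, the log2 signal of Ezh2 minus that of Ezh1 was 0.96, 0.56 and 0.81 in Jak2VF_Ezh2KO, 1.74, 1.59 and 1.12 in Jak2VF, and 1.34, 1.30 and 1.21 in WT. Every Jak2VF_Ezh2KO array lay below every array of the other groups. The mean was -0.71 from Jak2VF and -0.51 from WT, a measure chosen after the values were seen and given with no test. The sizes within an array depend on the 2 probe sets and do not compare the amounts of the RNAs.

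Repeated values touched 1 member. Ezh1 had the same deposited value, 7.51, in Jak2VF_Ezh2KO replicate 1 and WT replicate 2, whereas the other 9 members had 9 different values each. Among all genes, 46.5% had a value on 2 or more arrays. The spread of such genes can be understated, and how the authors' summary gave equal values was not given in the sources used here.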
